A study of Homo sapiens with 12 samples.

Results

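The genes described here are the peroxisome proliferator-activated receptors (PPARs), a coactivator of them and a set of lipid genes they are known to control, 10 genes in all: the receptors PPARA, PPARD and PPARG, the coactivator PPARGC1A, and the targets and oxidation enzymes ANGPTL4, PLIN2, PDK4, CPT1A, ACADVL and HADHA. Their members were every probe set, a group of short probes on the array that measures 1 transcript, that the array annotation gives to exactly 1 of these genes. This found 31 of 54675 probe sets on the array. Probe sets that averaged under 4 on the log2 scale were not tested; 21 of the 31 passed, with at least 1 for each of the 10 genes, so all 10 belonged to the 10791 genes tested. The other 10 probe sets lay between 2.00 and 3.65 on every array.

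RNA came from HK-2 cells, an immortalised line of human proximal tubule cells of the kidney. The 4 groups of 3 arrays each were Aa at a low dose for 24 h, control for 24 h, Aa at a low dose for 48 h and control for 48 h. The labels give neither the numeric dose nor the full name of Aa, and they describe the controls as exposed to vehicle. All groups were the same line, grown with EGF, hydrocortisone, insulin, transferrin and selenite and treated when nearly confluent. The 3 arrays of a group are labelled as biological replicates, with nothing on what set the cultures apart, and the p-values reflect only the spread among them. In bulk RNA, fewer cells of a type and less RNA per cell cannot be told apart.

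PPARs are nuclear receptors that bind fatty acids and related lipids, pair with a retinoid X receptor and switch on genes through DNA elements made of a repeated half-site. PPARA and PPARD are known for driving fatty acid oxidation, which the proximal tubule uses as its main fuel, and PPARG for fat storage and adipocyte identity. PPARGC1A docks on PPARs and other receptors and raises mitochondrial and oxidation genes. Among the targets, ANGPTL4 encodes a secreted inhibitor of lipoprotein lipase, PLIN2 a coat protein of lipid droplets, and PDK4 a kinase that shuts pyruvate out of the mitochondrial citric acid cycle.

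In the fit that does not pair arrays by replicate number, ANGPTL4, PLIN2 and PDK4 were the genes that rose after 24 h. ANGPTL4 and PLIN2 rose again at 48 h in that fit. The DNA just before the transcription starts of these 3 genes is therefore given here. In the fit that pairs arrays, described below, PPARA and PPARD rose at 24 h as well. The sequences are from RefSeq, build GRCh38.p14, written 5′ to 3′ on the strand of the gene. Capitals mark the letters GGGTCA, a variant of the half-site that PPARs bind.
ANGPTL4 (chr19:8363905-8364154, plus strand): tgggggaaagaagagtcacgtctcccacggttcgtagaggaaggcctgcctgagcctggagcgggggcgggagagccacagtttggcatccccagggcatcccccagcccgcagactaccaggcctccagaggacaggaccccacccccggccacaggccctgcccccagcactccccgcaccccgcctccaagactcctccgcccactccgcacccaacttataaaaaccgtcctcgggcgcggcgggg
PLIN2 (chr9:19127493-19127742, minus strand): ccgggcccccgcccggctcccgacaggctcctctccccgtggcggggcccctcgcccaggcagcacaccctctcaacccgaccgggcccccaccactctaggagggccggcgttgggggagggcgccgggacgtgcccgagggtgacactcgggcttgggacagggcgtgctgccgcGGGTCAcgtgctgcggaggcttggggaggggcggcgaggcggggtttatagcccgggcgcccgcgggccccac
PDK4 (chr7:95596517-95596766, minus strand): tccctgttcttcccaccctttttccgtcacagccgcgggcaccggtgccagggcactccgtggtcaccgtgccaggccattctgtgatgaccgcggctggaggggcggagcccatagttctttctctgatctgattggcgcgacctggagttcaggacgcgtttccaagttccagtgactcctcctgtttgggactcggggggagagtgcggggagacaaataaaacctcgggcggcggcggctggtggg
Windows from 250 bases before to 50 bases after the start were searched on both strands for the half-sites AGGTCA and GGGTCA, and for the full element, AGGTCA, any 1 base (N) and AGGTCA again. A full element also counts as a match of its half-site. The full element was in 0 windows of the 10 genes and in 8 of the 35116 windows of all genes (0.0228%). The half-site AGGTCA was in 13.8% and GGGTCA in 14.1% of all windows. Of the 3 genes shown, the window of PLIN2 held 1 GGGTCA, which starts 73 bases before the start of transcription, and the windows of ANGPTL4 and PDK4 held neither half-site. Of the 6 PPARG windows, 3 held AGGTCA and 1 other held GGGTCA, and 1 of the 2 ACADVL windows held GGGTCA. In PPARG, 2 of the 3 windows with AGGTCA overlap and hold the same site, 14 and 24 bases before their starts. A match is a description of the letters, and the absence of one says nothing about elements elsewhere in these genes. Only the exact letters were searched, so elements with other letters inside the windows were not seen. The exact full element is so rare in all windows that 0 among the 10 genes tells little.

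Levels are given on the log2 scale. A change is the Aa mean less the control mean on that scale, and SE is its standard error from a limma fit of every gene on the 12 arrays. A gene rose or fell where the p adjusted by Benjamini and Hochberg's method was below 0.05, and n = 3 arrays per group throughout. After 24 h, 3 of the 10 genes rose and 1 fell, beside 23.1% of all genes tested that changed. After 48 h, 3 rose and 1 fell, beside 37.8% of all genes tested, which is close to the share among the 10. The median change of the 10 genes was 0.25 at 24 h and 0.04 at 48 h, and that of all genes tested was -0.02 at 24 h and -0.00089 at 48 h. With the replicate number fitted as a block, so that same-numbered arrays are compared, 5 rose and 2 fell at 24 h (41.3% of all genes changed) and 4 rose and 2 fell at 48 h (54.8%). Over the 21 probe sets past the filter, 4 changed at 24 h and 5 at 48 h, beside 22.3% and 33.9% of all probe sets tested, and 0 did in the interaction and 0 in control cells over time, tests that are described after the genes (0.392% and 0.117%). With the block these were 10, 10, 5 and 5, beside 39.7%, 51.1%, 8.43% and 14.5% of all probe sets. The Aa and control arrays lay apart in 4 of the 10 genes at 24 h and in 6 at 48 h, beside 40.5% and 48.4% of all genes tested.

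**Figure D1:**
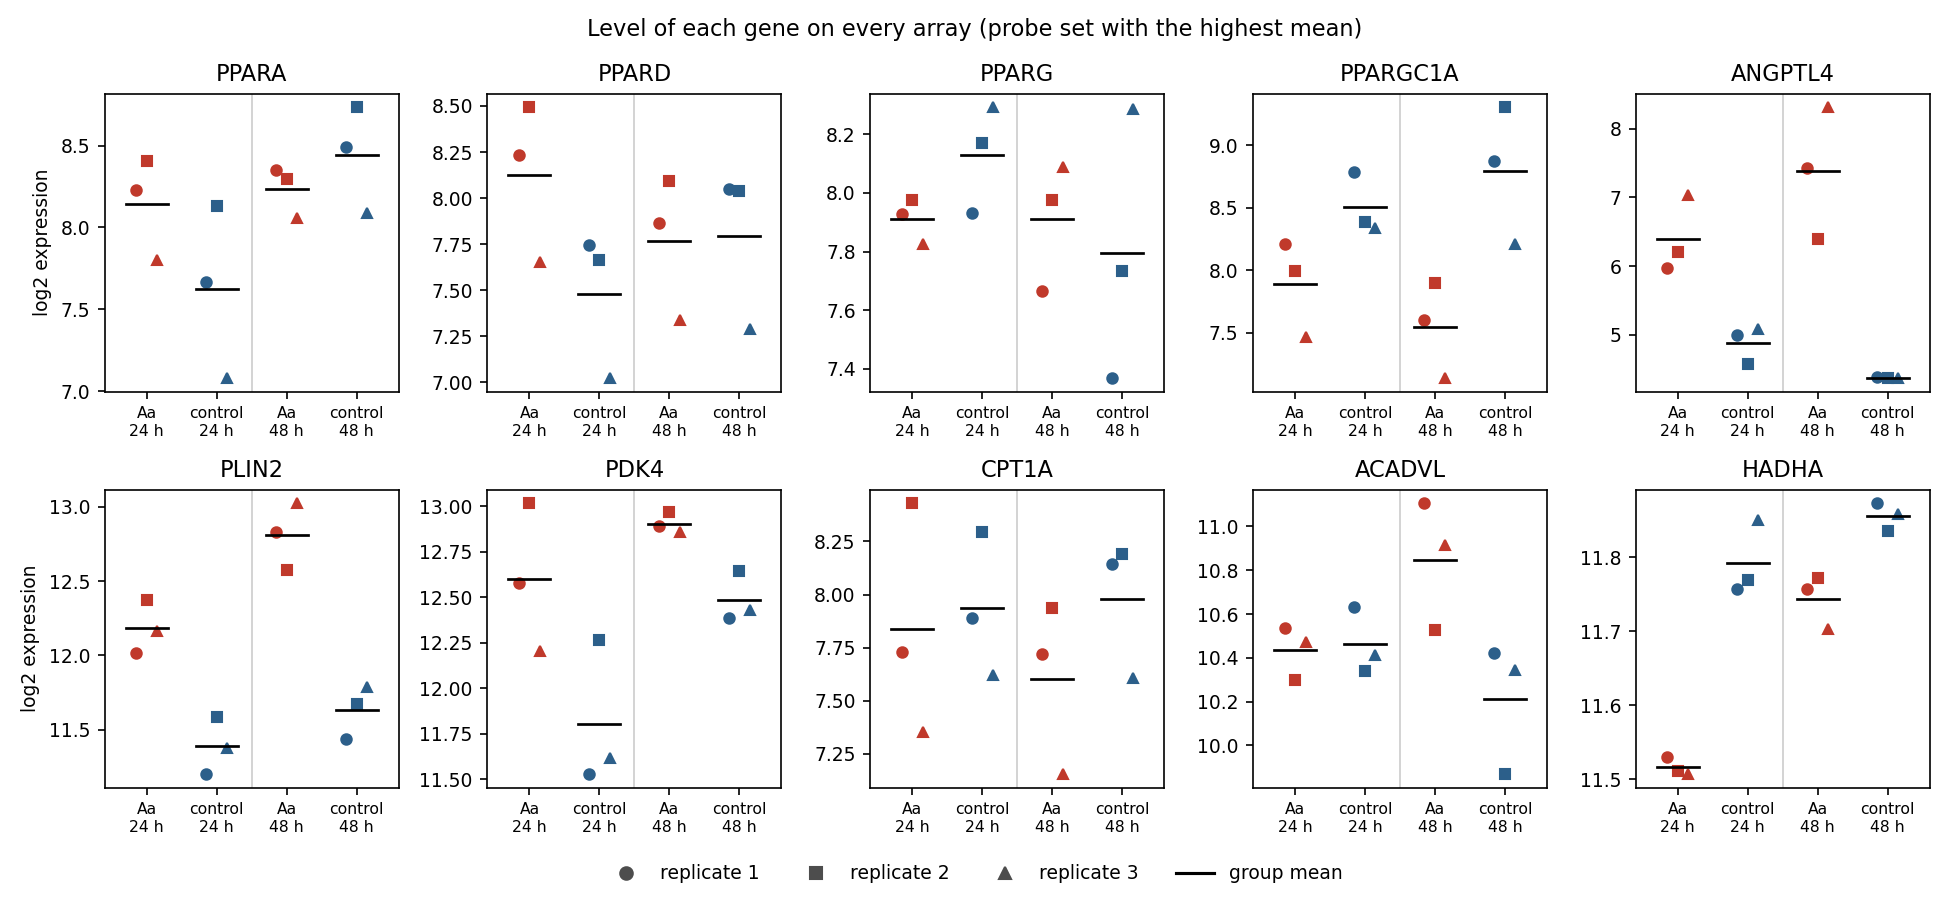
Log2 expression on every array for the probe set with the highest mean of each gene; red symbols are Aa and blue symbols control arrays, the shape gives the replicate number and black bars are group means of 3 arrays. All 3 Aa arrays lie above all 3 control arrays for ANGPTL4 and PLIN2 at both times, and below them for PPARGC1A and HADHA at both times.

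ANGPTL4 had the largest change of the 10 genes at both times. Its brighter probe set read 5.98, 6.20 and 7.03 on the Aa arrays numbered 1, 2 and 3 at 24 h, against 4.99, 4.58 and 5.09 on the controls. At 48 h it read 7.43, 6.40 and 8.31 with Aa, against 4.39, 4.38 and 4.37 in controls. All Aa arrays were above all control arrays at both times, the Aa arrays spread widely, and Aa replicate 3 was the highest at either time. The gene rose by 1.51 (SE 0.41, adjusted p = 0.0219) at 24 h and by 3.00 (SE 0.41, adjusted p = 0.000414) at 48 h. At 48 h this is 8.0-fold, with a 95% interval of 4.29 to 14.9, and 0.649% of all genes tested had a larger change at 48 h.

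The second ANGPTL4 probe set read 5.76, 4.83 and 6.97 with Aa and 4.99, 4.23 and 5.22 in controls at 24 h, where the groups overlapped, a change of 1.04 (SE 0.50, adjusted p = 0.165 over all probe sets, and 0.0270 with the block). At 48 h it rose by 3.06 (SE 0.50, adjusted p = 0.00114). The 48 h controls of the brighter probe set had an SD of 0.0076, and 0.741% of the genes tested had a smaller one in that group, whose median SD was 0.18. They also lay only just above the filter value of 4, so the size of the fold is less certain than its direction. At 24 h the call was lost without Aa replicate 3 (change 1.20, adjusted p = 0.0839), without control replicate 1 (adjusted p = 0.0518) and without control replicate 2 (adjusted p = 0.0717). At 48 h it held in 24 of 24 alternatives, with changes of 2.53 to 3.49.

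PLIN2, the lipid droplet coat gene, rose at both times with little spread. Its level with Aa was 12.02, 12.38 and 12.17 at 24 h, against 11.20, 11.59 and 11.38 in controls, and at 48 h it was 12.83, 12.57 and 13.03 with Aa, against 11.44, 11.67 and 11.79 in controls. The groups did not overlap at either time, and the difference within same-numbered arrays was 0.82, 0.79 and 0.79 at 24 h and 1.39, 0.90 and 1.24 at 48 h. The changes were 0.80 (SE 0.15, adjusted p = 0.00449) and 1.18 (SE 0.15, adjusted p = 0.000327), or 1.74-fold (95% interval 1.37 to 2.20) and 2.26-fold (1.79 to 2.86). A second, dim probe set of PLIN2, below the filter, read 3.52, 3.30 and 3.26 with Aa at 48 h, against 3.12, 3.11 and 3.07 in controls. At 24 h the call was lost when number 1 or number 3 was left out of all groups (adjusted p = 0.0634 and 0.0623).

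PDK4, the pyruvate dehydrogenase kinase, rose at 24 h, while its difference at 48 h passed the threshold only with the block among the fits of all arrays. Its brightest probe set read 12.58, 13.02 and 12.21 with Aa at 24 h, against 11.53, 12.27 and 11.61 in controls. At 48 h it read 12.89, 12.97 and 12.86 with Aa, against 12.39, 12.65 and 12.43 in controls. The groups overlapped narrowly at 24 h, when the lowest Aa array was under the highest control, and lay apart at 48 h. The change was 0.80 (SE 0.22, adjusted p = 0.0239) at 24 h, and 0.42 (SE 0.22, adjusted p = 0.160, and 0.0356 with the block) at 48 h, with a 95% interval of -0.07 to 0.90. The Aa array was higher in every same-numbered pair, by 1.05, 0.75 and 0.59 at 24 h and by 0.50, 0.32 and 0.43 at 48 h.

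The 2 other PDK4 probe sets had changes of 0.84 (adjusted p = 0.0968) and 0.38 (0.740) at 24 h and of 0.58 (0.204) and 0.63 (0.509) at 48 h. With the block these were adjusted p = 0.00882 and 0.211 at 24 h and 0.0332 and 0.0433 at 48 h. The 24 h call of the brightest probe set was lost without Aa replicate 1, Aa replicate 2, control replicate 1 or control replicate 3 (adjusted p = 0.0632, 0.0687, 0.0897 and 0.0875), and the change ranged from 0.59 to 1.03 over the single arrays left out.

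CPT1A encodes the carnitine palmitoyltransferase that lets long fatty acids into mitochondria, the gate of oxidation. Its level was 7.73, 8.43 and 7.35 with Aa at 24 h, against 7.89, 8.29 and 7.62 in controls, and 7.72, 7.94 and 7.15 with Aa at 48 h, against 8.15, 8.19 and 7.61 in controls. The groups overlapped at both times, and replicate 3 was the lowest in all 4 groups. The change was -0.10 (SE 0.30, adjusted p = 0.856, 95% interval -0.76 to 0.56) at 24 h and -0.38 (SE 0.30, adjusted p = 0.350, interval -1.04 to 0.28) at 48 h. Within same-numbered arrays Aa was lower in 3 of 3 pairs at 48 h, by 0.43, 0.25 and 0.45 in size, and the adjusted p was 0.0239 with the block. The 3 other CPT1A probe sets were below the filter.

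ACADVL, which encodes the dehydrogenase of the first step of very long chain oxidation, rose at 48 h. It read 11.11, 10.53 and 10.91 with Aa, against 10.42, 9.87 and 10.34 in controls, and the groups did not overlap. The rise was 0.64 (SE 0.18, adjusted p = 0.0167), 1.56-fold with a 95% interval of 1.19 to 2.04, and 0.69, 0.66 and 0.57 within same-numbered arrays. At 24 h it read 10.54, 10.30 and 10.47 with Aa, against 10.63, 10.34 and 10.41 in controls, a change of -0.03 (SE 0.18, adjusted p = 0.942, interval -0.42 to 0.37). The call at 48 h was lost without Aa replicate 1 (adjusted p = 0.0685), without Aa replicate 3 (0.0539) and without control replicate 2 (0.0629). The only probe set of the gene was this one.

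HADHA, the alpha subunit of the mitochondrial trifunctional protein that carries out the later steps of long chain oxidation, fell slightly at 24 h. Its brightest probe set read 11.53, 11.51 and 11.51 with Aa, against 11.76, 11.77 and 11.85 in controls, with no overlap. The fall was -0.28 (SE 0.07, adjusted p = 0.0202), 0.825 of the control level. At 48 h it read 11.76, 11.77 and 11.70 with Aa, against 11.87, 11.84 and 11.86 in controls, again apart, with a change of -0.11 (SE 0.07, adjusted p = 0.256, interval -0.27 to 0.05). The other probe sets had changes of -0.31 (adjusted p = 0.120, and 0.0112 with the block) and -0.19 (adjusted p = 0.164) at 24 h. At 48 h they had changes of -0.10 and 0.03. The 24 h call was lost without Aa replicate 1, Aa replicate 3 or control replicate 3 (adjusted p = 0.0510, 0.0594 and 0.0776).

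**Figure D2:**
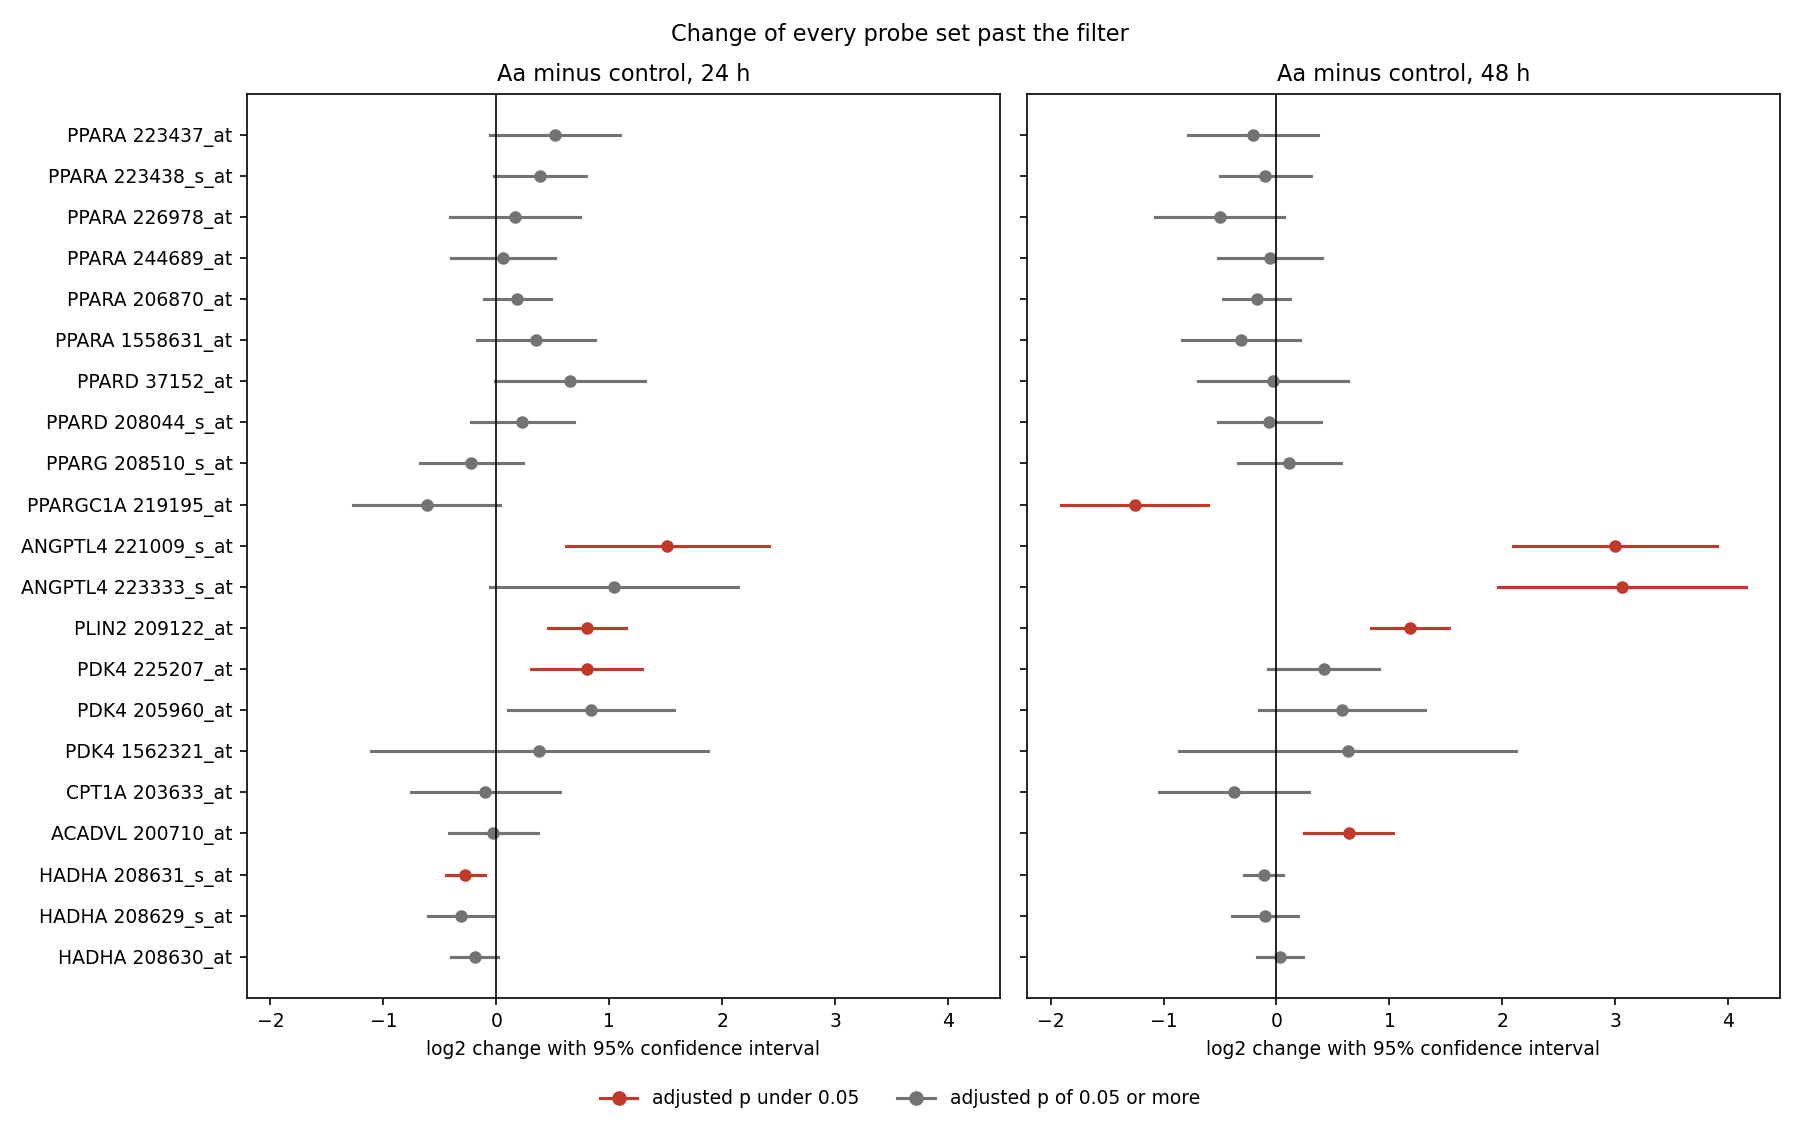
Log2 change with 95% confidence interval (Aa minus control) of each of the 21 probe sets past the filter at 24 h (left) and 48 h (right), on a common axis; red marks an adjusted p under 0.05 in the fit over all 19623 probe sets and grey the rest. At 24 h 3 probe sets rose and 1 fell, and at 48 h 4 rose and 1 fell; both ANGPTL4 probe sets sit near 3 at 48 h.

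PPARGC1A, the coactivator, fell at 48 h. It read 7.60, 7.90 and 7.14 with Aa, against 8.87, 9.31 and 8.21 in controls, and the groups lay apart. The fall was -1.25 (SE 0.29, adjusted p = 0.00724), 0.419 of the control level with a 95% interval of 0.268 to 0.656. At 24 h it read 8.21, 7.99 and 7.47 with Aa, against 8.79, 8.39 and 8.34 in controls, also apart, with a change of -0.62 (SE 0.29, adjusted p = 0.158, and 0.0215 with the block). Aa was lower in 3 of 3 same-numbered pairs at both times. The call at 48 h was lost when number 1 was left out of all groups (change -1.24, adjusted p = 0.0928). In the GRCh38.p14 annotation the gene spans 680.9 kb from its farthest start, and 0.492% of the genes tested span more. That start has its window at chr4:24472856-24473155, and a start much nearer the end of the gene has its window at chr4:23881052-23881351. Which start these cells used was not tested, so the transcript measured may be far shorter. Of the 331 genes tested that span over 300 kb, 225 fell at 48 h, with a median change of -1.05, beside 20.1% of all genes tested. The part of gene span in the fall of PPARGC1A was not tested. The other 9 genes span 8.14 kb (ACADVL) to 147.0 kb (PPARG).

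PPARA was measured by 9 probe sets, 6 of them past the filter. The brightest read 8.23, 8.40 and 7.80 with Aa at 24 h, against 7.67, 8.13 and 7.08 in controls, and 8.35, 8.29 and 8.06 with Aa at 48 h, against 8.49, 8.74 and 8.09 in controls. The groups overlapped at both times and replicate 3 was the lowest of each group. The change was 0.52 (SE 0.26, adjusted p = 0.176, and 0.0104 with the block) at 24 h and -0.21 (SE 0.26, adjusted p = 0.565) at 48 h. All 6 probe sets past the filter were higher with Aa at 24 h, by 0.06 to 0.52, and lower at 48 h, by 0.06 to 0.50 in size. None of these passed the threshold in the fit over all probe sets, at either time. The third brightest of the 6 had the largest of these differences at 48 h, with an adjusted p of 0.161, and of 0.00233 with the block.

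PPARD had 2 probe sets past the filter. The brighter read 8.23, 8.49 and 7.66 with Aa at 24 h, against 7.75, 7.66 and 7.02 in controls, and 7.86, 8.09 and 7.34 with Aa at 48 h, against 8.05, 8.04 and 7.29 in controls. The arrays of the groups overlapped at both times. The change was 0.65 (SE 0.30, adjusted p = 0.144) at 24 h, where the differences within same-numbered arrays were 0.49, 0.83 and 0.63 and the adjusted p with the block was 0.000492. At 48 h the change was -0.03 (SE 0.30, adjusted p = 0.948, interval -0.69 to 0.63). The dimmer probe set had changes of 0.23 (adjusted p = 0.476) at 24 h and -0.06 (adjusted p = 0.841) at 48 h.

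PPARG, the receptor of the adipocyte programme, was above the filter in these renal cells. Its single probe set read 7.93, 7.98 and 7.83 with Aa at 24 h, against 7.93, 8.17 and 8.29 in controls, and 7.67, 7.98 and 8.09 with Aa at 48 h, against 7.37, 7.73 and 8.29 in controls. The groups overlapped at both times, and neither change passed the threshold: -0.22 (SE 0.21, adjusted p = 0.487, interval -0.67 to 0.23) at 24 h and 0.11 (SE 0.21, adjusted p = 0.697, interval -0.34 to 0.57) at 48 h. The adipocyte markers ADIPOQ, LEP, PLIN1, FABP4 and CIDEC, 5 of 5, were below the filter, with means of 1.94 to 2.77.

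**Figure D3:**
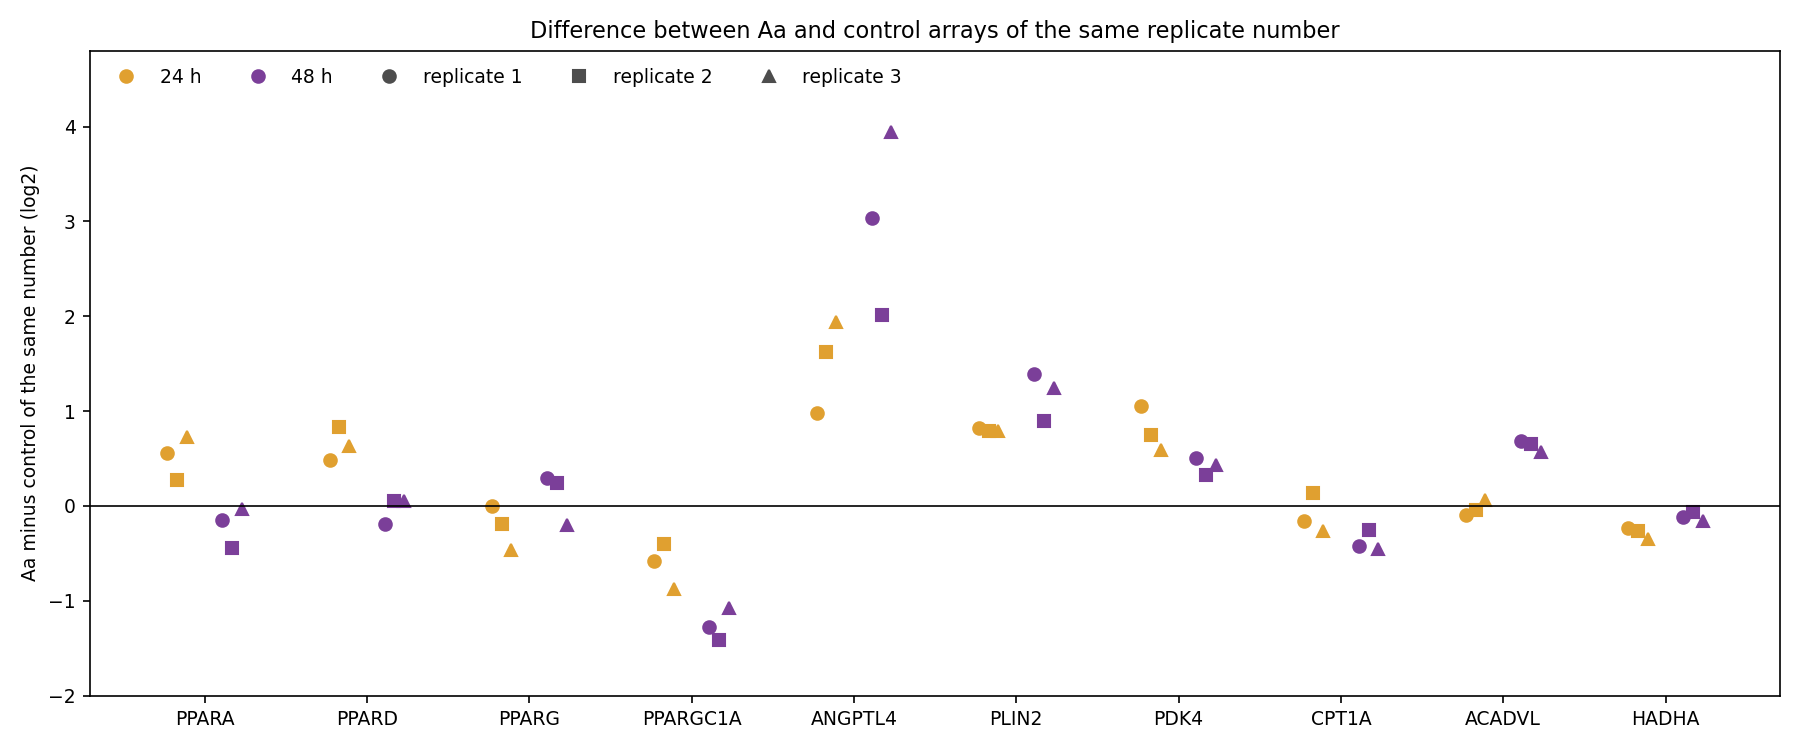
Log2 difference between the Aa and control arrays of the same replicate number, for the brightest probe set of each gene; orange symbols are 24 h and purple symbols 48 h, and the shape gives the replicate number. For PPARA the 3 pairs are above 0 at 24 h and below 0 at 48 h, and for ANGPTL4, PLIN2 and PDK4 they are above 0 at both times.

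Whether the effect of Aa changed from 24 h to 48 h was tested as an interaction, 48 h effect minus 24 h effect. None of the 10 genes passed, beside 0.825% of all genes tested. In limma 2 of the 10 had an unadjusted p under 0.05, beside 14.2% of all genes tested. These were ANGPTL4, whose effect was larger at 48 h by 1.49 (SE 0.58, adjusted p = 0.270), and ACADVL, larger by 0.66 (SE 0.25, adjusted p = 0.257). With the block 3 genes passed, beside 11.0% of all genes: ACADVL (adjusted p = 0.0178), PPARD, with an effect smaller at 48 h (-0.68, adjusted p = 0.0113), and PPARA (-0.73, adjusted p = 0.0358). For ANGPTL4 the adjusted p was 0.0630 with the block, and without Aa 48 h replicate 2 it passed (change 1.98, adjusted p = 0.0466). The effects on PLIN2 and PDK4 differed between the times by 0.38 and -0.38 (adjusted p = 0.461 and 0.618).

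The levels of control cells at the 2 times were compared as well. Of the 10 genes, 0 passed the threshold for control cells at 48 h against 24 h, beside 0.500% of all genes tested. In limma 2 of the 10 had an unadjusted p under 0.05, beside 16.7% of all genes tested. PPARA was higher at 48 h by 0.81 (SE 0.26, adjusted p = 0.168, and 0.00522 with the block) and PDK4 by 0.68 (SE 0.22, adjusted p = 0.169, and 0.0150 with the block). PPARD also passed with the block (0.32, adjusted p = 0.0306), and 17.8% of all genes did. For PDK4 the mean level was 12.90 with Aa and 12.49 in controls at 48 h, and 12.60 with Aa and 11.80 in controls at 24 h. The control mean of PDK4 differed more between the times than the Aa mean did. For PPARA the mean was 8.23 with Aa and 8.44 in controls at 48 h, and 8.15 with Aa and 7.63 in controls at 24 h.

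The other genes of the pathway were taken from 5 lists written from general knowledge. The block raised most of their counts, and its counts follow each list. Of 22 beta-oxidation genes tested 0 rose and 4 fell at 24 h, and 2 rose and 3 fell at 48 h, shares at or below those of all genes, of which 10.3% rose and 12.8% fell at 24 h and 17.8% rose and 20.1% fell at 48 h, except for the falls at 24 h. With the block 1 rose and 7 fell at 24 h, and 5 rose and 4 fell at 48 h. ACAD9, an acyl-CoA dehydrogenase also needed to assemble respiratory complex I, had changes of -1.11 at 24 h (SE 0.12, adjusted p = 0.000223) and -1.39 at 48 h. ECI1, an isomerase for unsaturated fatty acids, had changes of -1.25 at 24 h (SE 0.25, adjusted p = 0.00500) and -1.44 at 48 h. ETFDH, which passes electrons from the dehydrogenases to ubiquinone, fell by 0.86 at 24 h (SE 0.10, adjusted p = 0.000308). HSD17B4, a peroxisomal enzyme, fell at both times, and CROT, a peroxisomal carnitine transferase, and ACAA2, a mitochondrial thiolase, rose at 48 h by 0.51 and 0.37.

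Of 9 genes of fatty acid uptake and activation tested, 0 rose and 1 fell at 24 h and 1 rose and 2 fell at 48 h (0 and 3, and 1 and 4, with the block). Beside this list and the next, 10.3% of all genes rose and 12.8% fell at 24 h. At 48 h 17.8% rose and 20.1% fell. With the block 41.3% of all genes changed at 24 h and 54.8% at 48 h. The thioesterase gene ACOT13 had changes of -1.15 (SE 0.15) at 24 h and -1.35 at 48 h. At 48 h SLC27A2, an acyl-CoA synthetase and transporter of the proximal tubule, fell by 1.64 (SE 0.43, adjusted p = 0.0130), and the fatty acid binding protein gene FABP5 rose by 0.90 (SE 0.29, adjusted p = 0.0327). From 24 h to 48 h the mean of SLC27A2 went from 7.40 to 7.59 with Aa and from 8.01 to 9.24 in controls. That of FABP5 went from 10.33 to 10.34 with Aa and from 10.47 to 9.45 in controls. Of 10 lipid droplet genes besides PLIN2, 0 rose and 1 fell at 24 h, and 2 rose and 0 fell at 48 h (1 and 2, and 4 and 1, with the block). DGAT1, which makes triglyceride, fell by 0.98 at 24 h (SE 0.18), while DGAT2, the other such enzyme, and ABHD5, which activates a triglyceride lipase, rose at 48 h by 0.66 and 0.65.

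Among 10 other PPAR targets tested, 0 rose and 2 fell at 24 h, and 2 rose and 4 fell at 48 h (1 and 2, and 3 and 4, with the block). Of all genes tested 10.3% rose and 12.8% fell at 24 h, and 17.8% rose and 20.1% fell at 48 h. The shares of all genes that changed with the block were 41.3% at 24 h and 54.8% at 48 h. UCP2, an inner membrane carrier of mitochondria, read 10.97, 10.89 and 11.52 with Aa at 24 h, against 13.21, 12.66 and 12.72 in controls, and 9.92, 10.64 and 10.35 with Aa at 48 h, against 12.70, 12.42 and 12.76 in controls. All Aa arrays were below all controls, and the changes were -1.74 (SE 0.23, adjusted p = 0.000561) and -2.32 (SE 0.23, adjusted p = 7.21e-05). PDK1, a kinase of the same family as PDK4, had changes of -0.52 (SE 0.13, adjusted p = 0.0147) at 24 h and -1.04 (SE 0.13, adjusted p = 0.000254) at 48 h, the opposite direction to PDK4 at 24 h. TXNIP, a glucose-responsive inhibitor of thioredoxin, rose by 2.98 (SE 0.54, adjusted p = 0.00194) at 48 h, where it read 10.38, 10.08 and 10.04 with Aa, against 6.32, 6.33 and 8.92 in controls. Control replicate 3 stood apart there, and the 24 h means were 10.61 with Aa and 9.84 in controls. KLF10 rose by 0.92 at 48 h, where IMPA2 fell by 0.32. TRIB3 was lower with Aa at 48 h (-0.42, SE 0.09, adjusted p = 0.00361), with means of 11.70 with Aa and 12.12 in controls, against 11.72 with Aa and 11.59 in controls at 24 h. Without the block TRIB3 was the 1 gene of the lists past the threshold in control cells over time, beside 0.500% of all genes. It was higher at 48 h by 0.53 (SE 0.09, adjusted p = 0.0417). With the block 3 beta-oxidation genes rose and 3 fell over time, and 3 and 2 of uptake and activation. The counts were 0 and 1 for lipid droplet genes, 2 and 1 for other PPAR targets and 3 and 0 for cofactors. Of all genes 17.8% passed with the block.

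Of 15 PPAR partners and cofactors tested, 2 rose and 0 fell at 24 h, beside 10.3% and 12.8% of all genes tested. At 48 h 1 rose and 4 fell, beside 17.8% and 20.1%. With the block 4 rose and 0 fell at 24 h, where 41.3% of all genes changed. At 48 h 4 rose and 6 fell with the block, where 54.8% of all genes changed. MED1, the Mediator subunit that PPARs contact, rose by 0.61 (SE 0.12, adjusted p = 0.00427) at 24 h and by 0.71 (SE 0.12, adjusted p = 0.00107) at 48 h. TBL1XR1, a corepressor exchange factor, rose by 0.30 at 24 h. At 48 h the coactivators NCOA2 (-0.81, SE 0.17), NCOA1 (-0.58, SE 0.19) and CREBBP (-0.52, SE 0.15) fell, and so did LPIN1, which acts with PPARGC1A (-0.37, SE 0.10). RXRA, the usual partner of PPARs, had a change of 0.40 (SE 0.20, adjusted p = 0.176, and 0.0137 with the block) at 24 h.

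**Figure D4:**
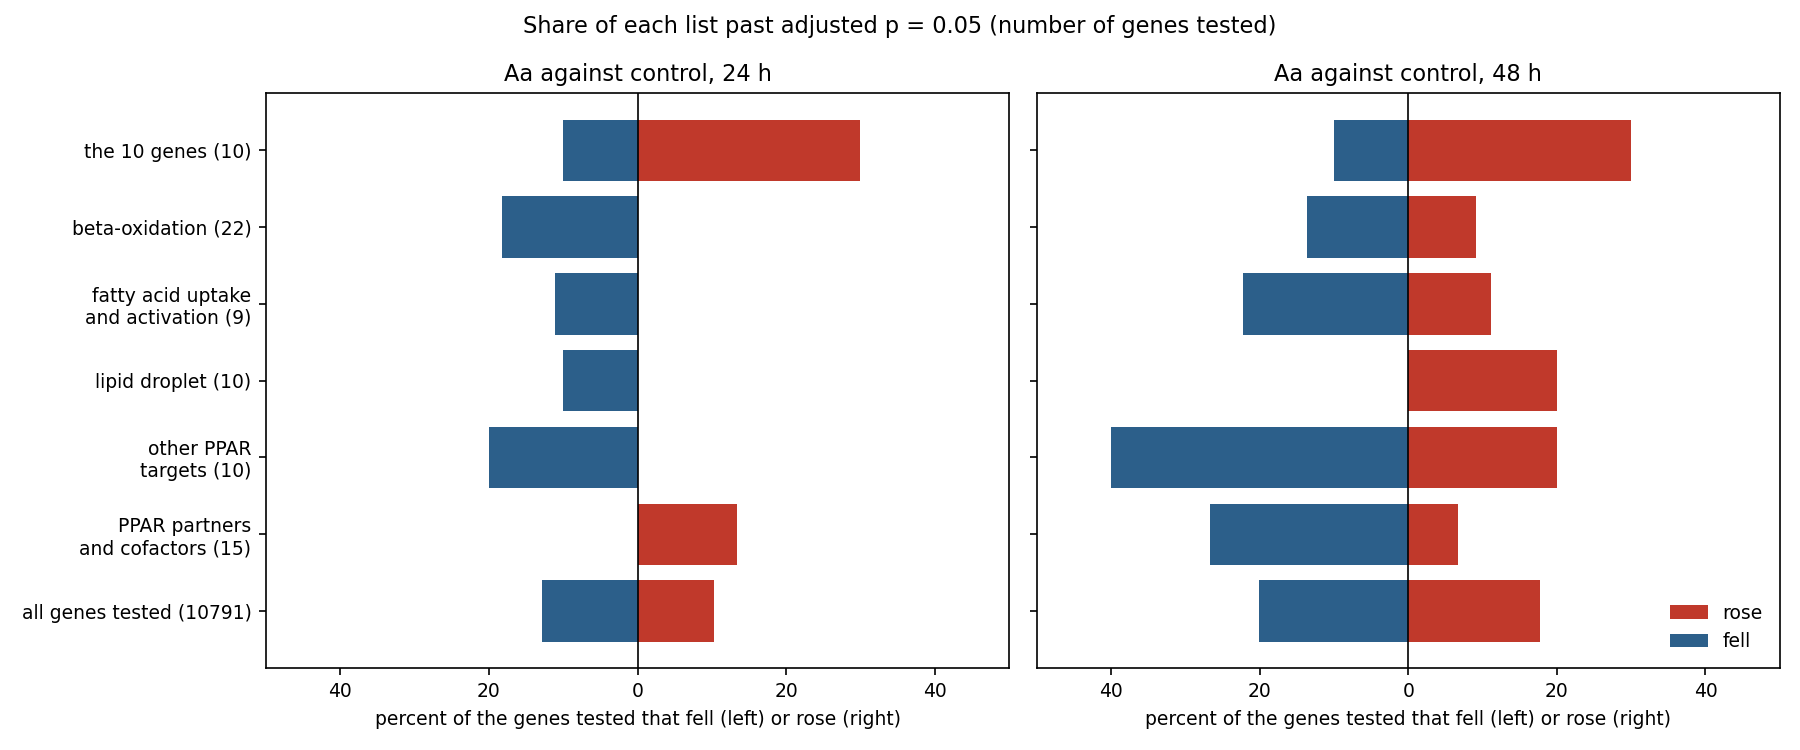
Percent of the genes tested that rose (red, right) or fell (blue, left) with Aa at 24 h and 48 h, for the 10 genes, the 5 pathway lists and all 10791 genes tested, with the number of genes tested in brackets. The counts are those of the fit without the replicate block; in it 4 of the 5 lists have falls only at 24 h, against 1 of the 5 with the block.

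Across the 12 arrays the genes most like each of the 10 were named by Pearson's r, as a description, since the arrays share groups and replicate numbers. For ANGPTL4 they were APOL6 and ZNF107 (r = 0.97 each), for PLIN2 SERTAD2 and VEGFA (r = 0.96 each), for PDK4 IL1R1 and LYST (r = 0.95 each), and for PPARGC1A UBE2E3 and SPG11 (r = 0.96 each). The closest genes to the other members had r from 0.87 to 0.97, among them SQLE for HADHA (r = 0.97).

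The identity of the cells was checked with marker genes. Epithelial markers were past the filter in 5 of 5 cases. Their summed log2 level was 55.7 to 56.6 with Aa against 57.5 to 58.5 in controls at 24 h, and 56.6 to 58.3 with Aa against 56.7 to 58.4 in controls at 48 h. Of 11 proximal tubule markers with a probe set CDH6, PAX8 and SLC3A1 were past the filter, and LRP2, CUBN, AQP1, SLC34A1, SLC5A2, GGT1, ANPEP and MME were below it. The summed log2 level of the 11 was 51.0 to 52.9 with Aa against 54.0 to 54.2 in controls at 24 h, and 49.2 to 51.6 with Aa against 53.9 to 55.0 in controls at 48 h, and the part of either sum in the changes of the genes was not tested. The markers below the filter averaged 3.04 or less and most moved little. The differences in the sum of the 11 came mainly from SLC3A1 and CDH6. At 48 h SLC3A1 read 7.97, 8.45 and 6.68 with Aa, against 10.01, 9.96 and 8.73 in controls. CDH6 then read 10.86, 11.57 and 10.58 with Aa, against 12.44, 12.69 and 12.33 in controls. Arrays of 1 group correlated with r from 0.994 to 0.997.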

How the data were processed

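RNA from HK-2 cells in 4 groups of 3 was measured on Affymetrix arrays. The deposited values are log2 expression per probe set; the authors made them with GCRMA, per the submitters' processing notes, whose version is not stated there. The values ran from 0.82 to 16.25. Gene names came from GEO's annotation of the array: of the 54675 probe sets 62 were controls and were left out, 41091 had 1 gene, 1801 had several and 11721 had no entry. Symbols were updated to GRCh38.p14 for 41037 probe sets and 54 were kept.

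For each gene the brightest probe set was used, if its mean reached 4, which left 10791 genes. A second fit used all 19623 such probe sets. A model of 4 group means was fitted to 12 arrays with limma 3.58.1 in R 4.3.3 (8 residual and 2.76 prior degrees of freedom), and two-sided p-values were adjusted by Benjamini-Hochberg over everything tested. The code was tested on simulated data.

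Named genes were the 10 members, up to 4 genes of each list with the smallest p at each time, and the 2 genes most correlated with each member. Other genes of a list that are named were chosen after their values were seen. The members and lists were chosen with earlier results of these data known. The number of arrays limits the precision.

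Labels give replicate numbers without saying what they share. After subtraction of group means, the 18 same-numbered pairs had r of 0.27 to 0.56 and the 36 other pairs r of -0.43 to -0.01, so the numbers were taken to pair the samples, from the data. Alternatives were the replicate block, left-out arrays, other filters, scalings and probe set choices, a trended prior, and fits of 1 time.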

Additional observations from a re-analysis of the deposited data

Results flagged for a closer look

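PPARA was singled out because the difference between same-numbered Aa and control arrays was above 0 in 3 of 3 pairs at 24 h (0.56, 0.28 and 0.72) and below 0 in 3 of 3 at 48 h (-0.14, -0.44 and -0.03). The share of all genes tested with such a reversal was not counted, so how common it is cannot be told here. The difference between the times, 48 h effect minus 24 h effect, was -0.73 (SE 0.37), with an adjusted p of 0.402 in limma and of 0.0358 with the replicate block. Over the alternatives it ranged from -0.98 to -0.45, with 1 of 24 past the threshold. These values are of the brightest probe set. The same signs in all 6 pairs were found in 2 of the 6 PPARA probe sets past the filter, with blocked interaction adjusted p of 0.0438 and 0.0243 in the fit of all probe sets, and not in the other 4, with adjusted p of 0.175 to 0.797. The gene and the 2 probe sets were picked by the signs of the same differences that the blocked interaction tests. Their p-values are therefore no separate support for the reversal.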

How the results depend on the processing

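ANGPTL4 and PLIN2 kept their rise at 48 h in every alternative (24 and 25 of them), and PPARGC1A its fall in 24 of 25. The 24 h calls were less firm: PLIN2 kept its call in 23 of 25 alternatives, ANGPTL4 in 17 of 24, HADHA in 17 of 25 and PDK4 in 16 of 25, and ACADVL at 48 h in 19 of 25. Beside left-out arrays, the 24 h calls were lost for ANGPTL4 and PDK4 with no filter (adjusted p = 0.0621 and 0.0587) and with the mean of all probe sets of a gene (0.0550 and 0.230), for HADHA without probe sets marked by name as shared (0.148), and for PDK4 and HADHA with only the 24 h arrays (0.0815 and 0.0673). With only the 48 h arrays ACADVL missed the threshold (0.0612) and PDK4 passed it (0.0329), and with no filter HADHA passed it at 48 h (0.0267). ANGPTL4 and PPARG have no other probe sets than those marked as shared. Where a cause is not evident from fewer arrays or more genes tested, it was not tested.

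With the replicate block 7 of the 10 genes changed at 24 h, 3 in the interaction and 3 in controls over time, and of the 21 probe sets 10 at 24 h, 10 at 48 h, 5 in the interaction and 5 in controls over time (4, 5, 0 and 0 without it). Over all genes it gave 4457 calls at 24 h, 1183 in the interaction and 1919 in controls over time. No filter, the mean of probe sets, no shared probe sets and only the 24 h arrays each gave 2 of the 10 genes at 24 h. The share of all genes that these settings called is not given here, so the count shows nothing particular to the 10 genes. Median centring gave 57 and no shared probe sets 48 interaction calls over all genes, against 89.

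Leaving out arrays gave 0 to 4 of the 10 genes at 24 h, 2 to 5 at 48 h, 0 to 1 in the interaction and 0 to 0 in controls over time. Over all genes it gave 536 to 2628 at 24 h, 1549 to 4146 at 48 h, 0 to 255 in the interaction and 1 to 361 in controls over time.

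Of 972 recomputed changes of the 10 genes 19 turned sign, all with an adjusted p of at least 0.708. With quantile normalisation ACADVL at 24 h was 0.0051, and without shared probe sets HADHA was 0.029 at 48 h and -0.0027 in controls over time. With arrays left out the ranges that crossed 0 were -0.086 to 0.060 for ACADVL at 24 h, -0.39 to 0.14 for CPT1A at 24 h, -0.28 to 0.18 for PPARD at 48 h, -0.10 to 0.36 for PPARG at 48 h, -0.52 to 0.017 for CPT1A in the interaction, and -0.11 to 0.23 for CPT1A and -0.021 to 0.58 for PPARGC1A in controls over time.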

Other observations

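Genes of connective tissue matrix were measured well above the filter in these tubule cells: over the 12 arrays DCN, which encodes decorin, averaged 11.84, LUM, which encodes lumican, 9.60, and COL1A1 8.10, while COL1A2 averaged 2.90, below the filter. The summed log2 level of these 4 genes was 31.1 to 32.6 with Aa against 32.7 to 33.9 in controls at 24 h, and 31.4 to 32.6 with Aa against 32.0 to 32.9 in controls at 48 h. SERPINA1, a gene known from liver, averaged 12.65, while ALB, APOA1 and TTR, 3 of the 4 liver markers, were below the filter.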
